A study of Mus musculus with 6 samples.

Results

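Cultured mouse retinal pigment epithelium (RPE) that received no photoreceptor outer segments in culture was described from its 3 libraries alone. They were part of 6 libraries in the series, and all 12556 genes measured were used. Genes were ranked by their mean over the 3 libraries, so the ranking itself did not select for a difference between them. Some genes named further down were chosen for even or uneven values between the libraries, as the closing sections state. RPE was isolated for primary culture from mice of the strain C57BL/6J, 10 to 12 days old, and cells from about 1 eye per well were seeded on permeable supports with 0.4 µm pores in 24-well plates. The cultures were kept for 5 to 6 days and received no outer segments, the membrane stacks that rods and cones shed. They carry the title Veh in the labels, whereas the series' design calls them untreated, so whether a vehicle was added is not given. The other 3 libraries of the series, from cultures fed outer segments, were not used.

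The RPE is a monolayer of pigmented epithelial cells between the photoreceptors and the choroid. It engulfs shed outer segments and digests them in lysosomes, regenerates the visual pigment's chromophore through the visual cycle, makes melanin, moves ions, water, glucose and lactate across the blood-retina barrier, and secretes growth factors and the matrix of its basement membrane. In culture on a support, RPE cells are known to spread, to take up contractile and matrix-producing features and to lose part of the specialised programme they have in the eye.

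The 3 libraries were deep and alike in size. Replicates 1, 2 and 3 held 28808338, 26606536 and 25667464 reads over the genes of the table, and the authors divided them by size factors of 1.00, 0.939 and 0.901. Levels below are normalized read counts (reads divided by the size factor), and 3 values in a row are replicates 1, 2 and 3 in that order. The ranking is by these values, in which long transcripts gain reads, and was repeated per kilobase of exon. Other comparisons of level between genes are per kilobase. The labels describe the libraries as biological replicates but do not say whether they came from separate litters, days or cultures, so the spread given here is that between these 3 libraries. No pair of libraries was a copy, since chi-square values summed over all genes came to between 21.9 and 45.8 per degree of freedom. Across genes, which are not independent replicates, the Spearman correlation of levels was 0.9830 between replicates 1 and 2, 0.9942 between 1 and 3 and 0.9870 between 2 and 3. Replicate 2 stood apart from the others in genes induced by interferon, as set out below, and the counts of 2-fold ranges in the interferon, MHC class I and chemokine lists are also given without it.

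The most abundant gene, Trf (transferrin, the iron carrier of plasma), took 2.12% of the reads over the 12556 genes of the table. The 10 most abundant genes took 10.8%, the 25 most abundant 16.1% and the 1000 most abundant 58.4%. All shares of reads given here are on this base, so genes outside the table do not enter them. In replicates 1, 2 and 3 the 10 most abundant took 10.8%, 11.0% and 10.8%. Across the mean of the libraries, 81 genes held 25% of the reads, 621 genes held 50% and 4633 genes held 90%. Protein-coding genes, 11863 in number, held 99.1% of reads. The 347 long non-coding RNA genes held 0.449%, led by the nuclear RNA Malat1 with 57030, 65492 and 56236 normalized read counts.

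Trf had 595614, 588346 and 628029 normalized read counts, a mean of 603996 ± 21128 (SD, n = 3). Ctsd, the aspartic protease that degrades proteins in lysosomes, had 413389, 442779 and 473153 (443107 ± 29883). Igfbp2, a secreted binder of insulin-like growth factors, had 343130, 427620 and 382430 (384393 ± 42279). The highest and the lowest library differed by 1.07-fold for Trf, 1.15-fold for Ctsd and 1.25-fold for Igfbp2. Thbs1 (thrombospondin-1, a matrix glycoprotein) followed with 352606, 392586 and 348595. Serpina3n, a serine protease inhibitor with near-identical neighbours in a gene cluster, so that its reads may be shared with copies, was lowest in replicate 1, with 198148, 258245 and 267616.

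Spp1 (osteopontin) had 290872, 194572 and 180151 normalized read counts and the widest spread of the 25 leading genes, with a coefficient of variation (CV, SD over mean) of 27.1%. Tnc (tenascin-C), a matrix protein of remodelling tissue, came close at 26.6%, with 118622, 73383 and 81036. For both genes replicate 1 lay above the other libraries, which were near each other. Bsg (basigin, the partner that brings lactate transporters to the membrane) was steady at 201769, 208200 and 198189, and Fn1 (fibronectin) had 207076, 180954 and 149064. Replicate 1 was the highest library for Fn1 and the lowest for Gpnmb, a glycoprotein of melanosomes and lysosomes, which had 143064, 169453 and 172943. Next came the glycolytic enzyme Pkm with 150676, 131791 and 136370, and the amyloid precursor gene App with 120021, 126636 and 127343. Ctsb, a lysosomal cysteine protease, had 111669, 108147 and 109306, and the glycolytic enzyme Aldoa had 102883, 104562 and 105170, with CVs of 1.64% and 1.14%. Others of the 25, in order of mean, were the matricellular gene Ctgf, the collagen Col8a1, the endocytic receptor Lrp1, the actin cross-linker Flna, the matrix protein Sparc, Tnc, beta-actin (Actb), thioredoxin reductase (Txnrd1), caldesmon (Cald1), vimentin (Vim) and the autophagy adaptor Sqstm1, between 107388 and 77776 on average.

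**Figure D1:**
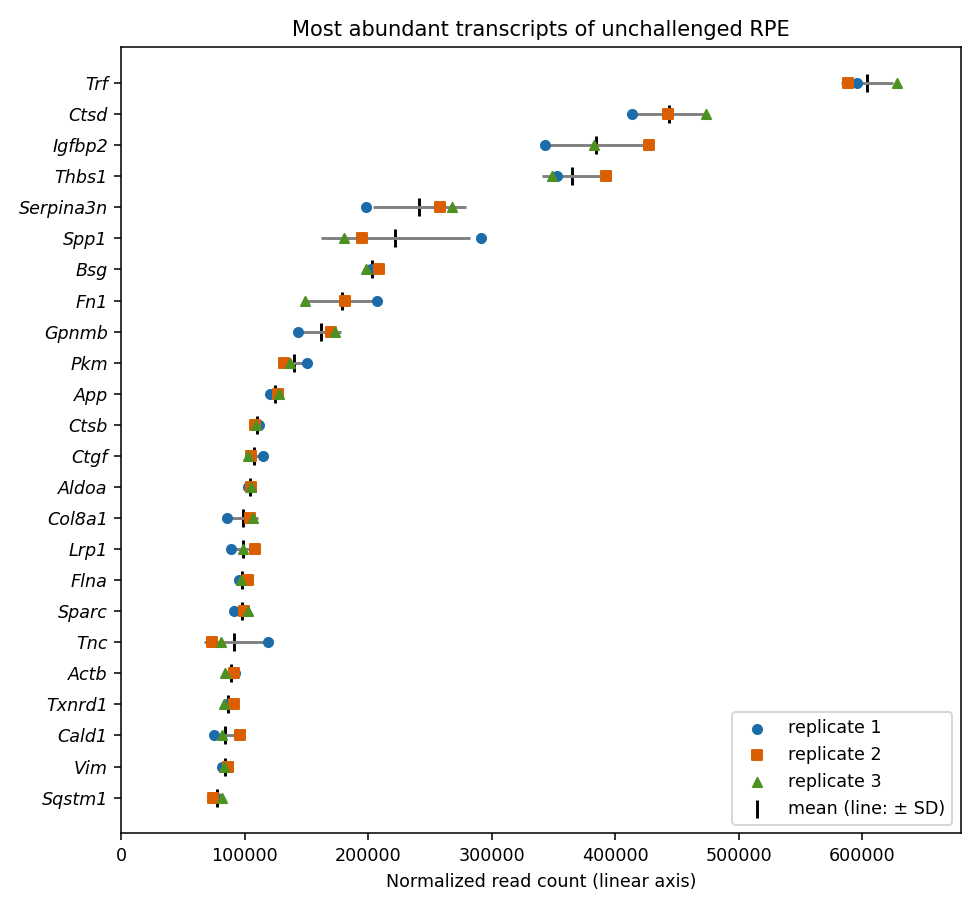
Normalized read counts of 24 of the 25 genes with the highest mean in unchallenged RPE, on a linear axis. Points are the 3 libraries, black bars their mean and grey lines ± SD (n = 3). Trf, with a mean of 603996, lies apart from the rest, and Spp1 and Tnc show replicate 1 above replicates 2 and 3.

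Ranking per kilobase of exon kept 16 of these 25 genes. The leading gene per kilobase was Igfbp2, with 235021, 292890 and 261938 normalized read counts per kilobase, followed by Trf with 216666, 214022 and 228457 and Ctsd with 194353, 208170 and 222451. The order of these 3 genes was the same in each library, although the ranges of Trf and Ctsd over the libraries overlapped. Further down, Spp1 had a mean of 134627 per kilobase, Bsg 120523, Serpina3n 116927, Thbs1 62345, Aldoa 57130 and Pkm 53718. Genes that entered the 25 leading ones on this scale included the haem-degrading enzyme Hmox1 (44940 per kilobase), the elongation factor Eef1a1 (39890, uncertain because of near-identical pseudogenes), the galectin Lgals1 (30555) and the lipid-binding chaperone Clu (27302). Long transcripts such as Lrp1 (6018 per kilobase), App (15265) and Fn1 (21115) left them. Lengths came from the union of annotated exons, which the transcripts used in these cells may not fill.

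On assembly GRCm38.p6, Trf (Entrez Gene 22041) lies on chromosome 9 from 103208876 to 103230286, Ctsd (13033) on chromosome 7 from 142375910 to 142387827, and Igfbp2 (16008) on chromosome 1 from 72824480 to 72852474. All are protein-coding genes.

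Every one of the 6 marker genes of RPE was detected in all 3 libraries. Tyr, tyrosinase, the rate-limiting enzyme of melanin synthesis, had 16469, 25494 and 23165 normalized read counts. Krt18, a keratin of simple epithelia, had 6899, 8264 and 8426. Ttr, the carrier of thyroid hormone and retinol, had 3406, 3594 and 3704 and was the steadiest of the markers, with a CV of 4.22%. In all of these, replicate 1 was the lowest library. Rlbp1, which holds 11-cis retinoids, had 2351, 3110 and 3136, and Mertk, the receptor kinase that triggers engulfment of outer segments, had 2421, 3407 and 3222. Rpe65, the isomerase of the visual cycle, had only 103, 167 and 139 normalized read counts and was number 9733 in the ranking. Per kilobase, Rpe65 reached 73.1, against a median of 223 over all genes with a length. Other genes that define RPE, Best1, Krt7, Cldn19 and Mfge8 among them, were not analysed here.

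All 13 genes listed for the visual cycle and retinoid carriers were measured, and together they took 0.0427%, 0.0491% and 0.0513% of reads in replicates 1, 2 and 3. Per kilobase, Ttr had a mean level of 3009, Rlbp1 1289, the retinol dehydrogenase Rdh5 1072 and Rdh11, another enzyme of that kind, 419, against 73.1 for Rpe65 and 10.2 for Lrat, the enzyme that esterifies retinol. Rdh5 had 1151, 1283 and 1613 normalized read counts, and Rdh11 had 1403, 1461 and 1484. Lrat had 20.9, 73.5 and 68.8, and the opsin Rrh (peropsin) had 52.8, 109 and 121. These were the 2 listed genes whose highest library was at least 2-fold over the lowest, and in both replicate 1 was the low one. Such genes made up 4.91% of all genes (616 of 12556), so 2 of 13 is a small count to set beside it. Replicate 1 was the lowest library for 11 of the 13, against 37.6% of all genes, and the median CV was 16.5%, against 7.76% over all genes. For the low members, counting of reads alone gives a wide spread.

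Melanin genes, with a median level of 892 per kilobase against 223 over all genes, followed the same order of libraries. Of 14 listed, 12 were measured, and they took 0.600%, 0.740% and 0.750% of reads, most of it from Gpnmb. Dct, which converts dopachrome in melanin synthesis, had 3286, 3577 and 4729 normalized read counts, and Tyrp1, an enzyme of the same pathway, had 2524, 3299 and 4649. Slc24a5, a cation exchanger of pigment cells, had 2971, 3380 and 3417, and Mlana, a melanosome protein, had 1302, 1612 and 1864. Replicate 1 was the lowest in each of these genes and in 11 of the 12, and none of the 12 reached a 2-fold range. Their median CV was 18.7%.

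Bases upstream of Tyr are shown because they hold the hexamer CATGTG, the core of the M box that the pigment cell factor Mitf is known to bind. They are the 150 bases before the RefSeq start on GRCm38.p6, written 5′ to 3′ along the gene's strand, with the hexamer in capitals. They lie at chr7:87493513-87493662 on the minus strand.
Tyr: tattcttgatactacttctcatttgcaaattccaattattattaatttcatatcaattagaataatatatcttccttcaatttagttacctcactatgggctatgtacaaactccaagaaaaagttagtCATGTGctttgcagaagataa
The hexamer began 21 bases before the start of Tyr. Searched on both strands of the 250 bases before each start in the RefSeq table, it stood before 5 of the 7 measured melanin genes with a promoter in the table (71.4%), against 13.8% of all 27025 genes with one and 8.88% of the 9791 measured ones. A match describes letters and is not evidence of a bound factor.

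Of 12 transcription factors listed for RPE identity, 8 were measured. Tfe3, of the same family as Mitf, had 4257, 4180 and 4175 normalized read counts, and the homeobox factor Otx2 had 2885, 2884 and 3104. Six3 had 1711, 1876 and 1762, Lhx2 had 1383, 1877 and 1907, and Sox9 had 1208, 1087 and 1125. Mitf itself had 235, 296 and 341. Tfe3, Otx2, Six3 and Sox9 varied little between libraries, while Lhx2 and Mitf were lowest in replicate 1. The median CV of the 8 was 7.55%, near that of all genes.

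**Figure D2:**
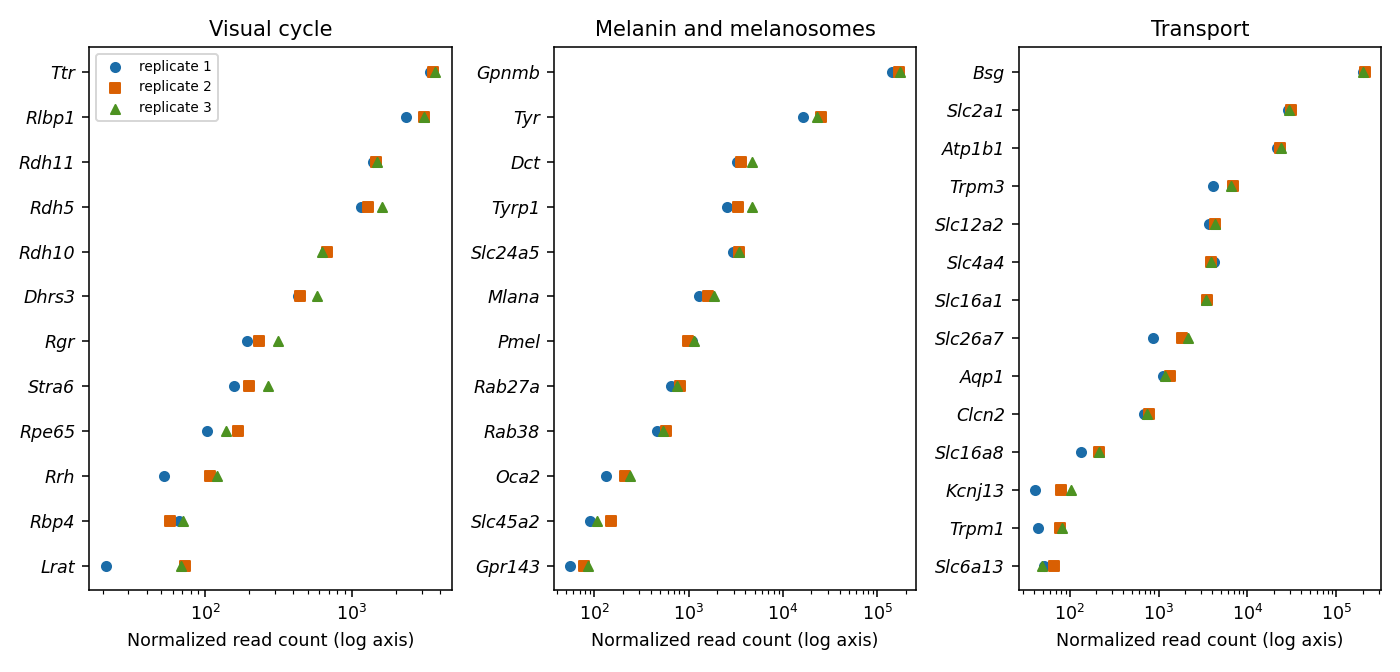
Normalized read counts of measured genes of the visual cycle, melanin and transport lists, on log axes, with 1 gene each of the visual cycle and transport lists not shown. Each point is 1 of the 3 unchallenged libraries. Replicate 1 is the lowest for most genes in each panel, as for Tyr with 16469 beside 25494 and 23165.

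Receptors and bridging molecules of outer segment uptake were expressed in these cultures, which received no outer segments. Of 16 listed, 15 were measured, taking 0.927% of reads, and none had a 2-fold range. Lrp1, a large endocytic receptor, had 88457, 107796 and 98119 normalized read counts. Itgav, the integrin chain that binds outer segments together with Itgb5, had 32116, 29271 and 31158, and Gas6, a bridging ligand of Mertk, had 22212, 33636 and 33351. Gas6 was low in replicate 1, as Mertk was, while Itgav did not follow that order. Per kilobase, the receptor kinase Axl had a mean level of 4691, above 701 for Mertk and 233 for Tyro3, its relatives. Axl was highest in replicate 1, with 24164, 17071 and 19034 normalized read counts, the opposite of Mertk. The calcium-dependent membrane binder Anxa2 (31406, 31326 and 30666) and the tetraspanin Cd81 (22835, 24304 and 24039) were steady.

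Lysosomal transcripts were abundant, with a median level of 4327 per kilobase against 223 over all genes. All 32 listed hydrolases and membrane proteins were measured and took 3.17%, 3.29% and 3.42% of reads. Their median CV was 3.83%, with values up to 22.7%, and none reached a 2-fold range. Genes with a mean between 1000 and 10000 had a median CV of 5.13%, and 1.81% of them had a 2-fold range. By a chi-square test set out below, 20 of the 32 differed by more than counting gives, against 44.5% of all genes. The share was 61.6% at that level and 93.7% between means of 10000 and 100000. The listed genes had means from 58.7 to 443107, with a median of 9862, so no single level matches them. Psap, the precursor of sphingolipid activator proteins, had 70106, 71131 and 70631 normalized read counts. The membrane protein Lamp1 had 39236, 39396 and 40035, and the cysteine protease Ctsl had 31065, 31461 and 31089. In all of these the libraries lay within 1.1-fold of each other, which held for 31.1% of all genes. Ctss, a cathepsin typical of phagocytes of the immune system, had 66.7, 66.0 and 43.3, a mean of 43.2 per kilobase. The proton pump that acidifies lysosomes was represented by 15 of 16 listed subunits and accessory proteins, 0.353% of reads, with a median CV of 3.97%. Atp6v0a1 had 14583, 18765 and 16573, Atp6ap1 had 16684, 16311 and 16431 and Atp6v1a had 10588, 13167 and 12392. Replicate 1 was the lowest in 13 of the 15, against 37.6% of all genes. The median ratio between the highest and the lowest library was 1.08, with 1.29 for Atp6v0a1 and 1.24 for Atp6v1a.

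The 150 bases before the start of Ctsd and Lamp1 are shown because they hold CACGTG, the E-box core of the element that Tfeb and Tfe3 are known to bind at lysosomal genes. Capitals mark it, the source and layout are as above, and the positions are chr7:142387828-142387977 on the minus strand and chr8:13159011-13159160 on the plus strand.
Ctsd: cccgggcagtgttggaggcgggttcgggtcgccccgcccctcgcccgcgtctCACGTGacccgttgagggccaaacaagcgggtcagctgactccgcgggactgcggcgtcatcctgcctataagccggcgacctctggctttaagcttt
Lamp1: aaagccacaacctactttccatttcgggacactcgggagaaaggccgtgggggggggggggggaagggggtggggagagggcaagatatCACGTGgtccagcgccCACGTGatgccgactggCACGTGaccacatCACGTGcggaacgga
The hexamer reads the same on both strands and does not overlap CATGTG. It occurred 4 times before Lamp1 and 1 time before Ctsd within these 150 bases. Over 250 bases it stood before 8 of 24 lysosomal genes in the table (33.3%), against 6.86% of all genes and 9.87% of measured ones.

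Genes of ion pumps and of glucose and lactate transport included some of the most abundant and some of the scarcest of the RPE lists. Of 18 transport genes listed, 15 were measured. Besides Bsg, the glucose transporter Slc2a1 had 28939, 30533 and 29479 normalized read counts, and Atp1b1, a subunit of the sodium pump, had 21231, 23413 and 23682. The cation channel Trpm3 was low in replicate 1, with 4125, 6842 and 6570. So was the chloride and bicarbonate exchanger Slc26a7, with 870, 1823 and 2150, which gave 1 of the 2 ranges over 2-fold in this list. Kcnj13, the apical potassium channel of RPE, gave the other, with 40.8, 79.9 and 103. Such ranges, here 2 of 15, were seen for 4.91% of all genes. The lactate exporter of RPE, Slc16a8, had 133, 212 and 215, and per kilobase its mean of 104 was below the 781 of the widely used lactate transporter Slc16a1.

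For glycolysis, 12 of 17 genes were measured and took 1.50% of reads. Besides Pkm and Aldoa, Eno1 had 52308, 51191 and 51412 normalized read counts, Gpi1 had 45789, 41365 and 44775 and Tpi1 had 39252, 35646 and 36733. None of the 12 reached a 2-fold range. Gapdh was listed with only 779, 901 and 736, a mean of 539 per kilobase against 57130 for Aldoa. Gapdh has many near-identical pseudogenes, so its level here is uncertain. The same holds for Actg1 (2771, 2945 and 2610) beside Actb, and for cytoplasmic ribosomal proteins, 45 of which were measured with means between 40.2 and 16640. Nuclear genes of the respiratory chain and ATP synthase, 22 of 24 measured, took 0.313% of reads with a median CV of 4.56%. They were led by Atp5b with 23993, 25678 and 25014. The 9 mitochondrially encoded genes listed were not analysed here.

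All 27 iron and redox genes listed were measured, with a median level of 4285 per kilobase. Txnrd1 had 85638, 90906 and 83020 normalized read counts, Hmox1 69654, 71403 and 70478, and the ferritin heavy chain Fth1 29031, 24327 and 27585. The glutathione transferase Gsta4 had 19824, 20596 and 20452. Hmox1 and Gsta4 were among the steady genes of the list, with CVs of 1.24% and 2.02%. A 2-fold range was seen for 3 of the 27, against 4.91% of all genes. They were the metallothionein Mt2 (5213, 2112 and 2682), the cystine transporter Slc7a11 (4081, 1726 and 2760) and the iron exporter Slc40a1 (760, 358 and 541). In each, replicate 1 was the highest and replicate 2 the lowest.

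Genes of the matrix and of the contractile cytoskeleton had median levels of 2171 and 8318 per kilobase, against 223 over all genes. All 31 matrix genes listed were measured and took 4.98%, 4.60% and 4.32% of reads. Of the basement membrane collagens in the list, Col4a1 had 20703, 20649 and 21542 normalized read counts and Col18a1 had 21548, 22197 and 22235, both steady. Col4a3, a collagen IV chain outside the list, was low in replicate 1, with 6918, 10249 and 10878. The interstitial collagen Col1a1 had 50182, 35449 and 36826 and Col3a1 15297, 9869 and 11067, both highest in replicate 1. Dcn (decorin), a proteoglycan typical of fibroblasts, had 1878, 481 and 895. It was the only 1 of the 31 matrix genes with a 2-fold range, against 4.91% of all genes.

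Among 21 matrix proteases, inhibitors and cross-linking enzymes, Lox, which cross-links collagen, had 88811, 69338 and 71999 normalized read counts. Htra1, a secreted protease linked to macular degeneration, had 32499, 37747 and 37369. Timp3, the protease inhibitor deposited in Bruch's membrane, had 31683, 37434 and 38037, and Timp2 had 29561, 35308 and 35302. Htra1, Timp3 and Timp2 were lowest in replicate 1, while Lox was highest there. The 3 members with a 2-fold range, against 4.91% of all genes, were metalloproteinases. Mmp3 had 48045, 11146 and 25067, Mmp9 had 1317, 134 and 291 and Mmp13 had 1702, 261 and 853. All were highest in replicate 1 and lowest in replicate 2.

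Of 26 cytoskeletal genes, 25 were measured, took 2.73% of reads and showed no 2-fold range. Flna had 95086, 102171 and 96451 normalized read counts, Actb 92273, 91024 and 83918 and Vim 81362, 86169 and 83061. The non-muscle myosin Myh9 (69132, 71551 and 64710) and the membrane linker Msn (67853, 60588 and 60266) followed. Acta2, the smooth muscle actin of contractile cells, had the widest spread of the list, with a CV of 30.6%. Its values were 39749, 70972 and 73492, so replicate 1 was the low library. Tagln, another contractile gene, had 19667, 28895 and 28124 in the same order. Of the junction genes, Ctnnb1 had 38136, 36963 and 37307 and the RPE cadherin Cdh3 7755, 9182 and 8723, whereas Cdh1 (E-cadherin) was near the floor of the table at 33.9, 19.2 and 18.9.

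Of 33 growth factor, cytokine and receptor genes listed, 32 were measured, taking 1.21% of reads. Cyr61, a matricellular relative of Ctgf, had 58954, 67941 and 62858 normalized read counts. The cytokine Lif, which supports photoreceptors under stress, had 38049, 32519 and 30227, and Vegfa, which RPE secretes toward the choroid's vessels, had 32218, 30070 and 29646. Hbegf, a ligand of the EGF receptor, had 29192, 29535 and 26188. These factors varied by less than 1.5-fold between libraries. Of the 6 genes in the list with a 2-fold range, against 4.91% of all genes, the cytokine Il6 had the widest, with 858, 142 and 402, in the order of replicates seen for Mmp3.

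Spread between libraries depended on level, and at high levels it exceeded what the counting of reads gives. The median CV over all 12556 genes was 7.76%. In the 2328 genes with a mean under 100 it was 19.1%, against 16.1% from counting alone. In the 4649 genes between 1000 and 10000 it was 5.13%, against 2.15% from counting, and in the 395 genes between 10000 and 100000 it was 5.48%, against 0.805%. A chi-square test of the 3 read counts of each gene against their size factors, with Benjamini-Hochberg adjustment over all genes at 0.05, called 5590 genes (44.5%), including all 15 genes with a mean of at least 100000. The test compares these libraries and not conditions. Without replicate 1 it called 2079 genes. A 2-fold range was found for 616 genes (4.91%), and 355 of these had a mean under 100. Without replicate 1, 2 or 3, the remaining pair differed by at least 2-fold in 2.09%, 1.93% and 3.62% of genes. Genes whose highest library was within 1.1-fold of the lowest numbered 3911 (31.1%).

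Among the 5059 genes with a mean of at least 1000, the 10 most even varied by less than counting of reads gives. Cops2, a subunit of the COP9 signalosome, had 4025, 4028 and 4020 normalized read counts and a CV of 0.0977%. Mon2, of endosome to Golgi traffic, had 4263, 4257 and 4268, and Cdc37l1, a co-chaperone, had 1098, 1101 and 1100. Eid1, Usf3, Senp1, Dctn5, Pum2, Tbl1x and the growth factor receptor gene Met completed the 10 lowest, with CVs up to 0.231%. At their levels counting of reads alone gives 1.17% to 3.20%, so their place in the ranking does not show them to be more constant than other genes.

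**Figure D3:**
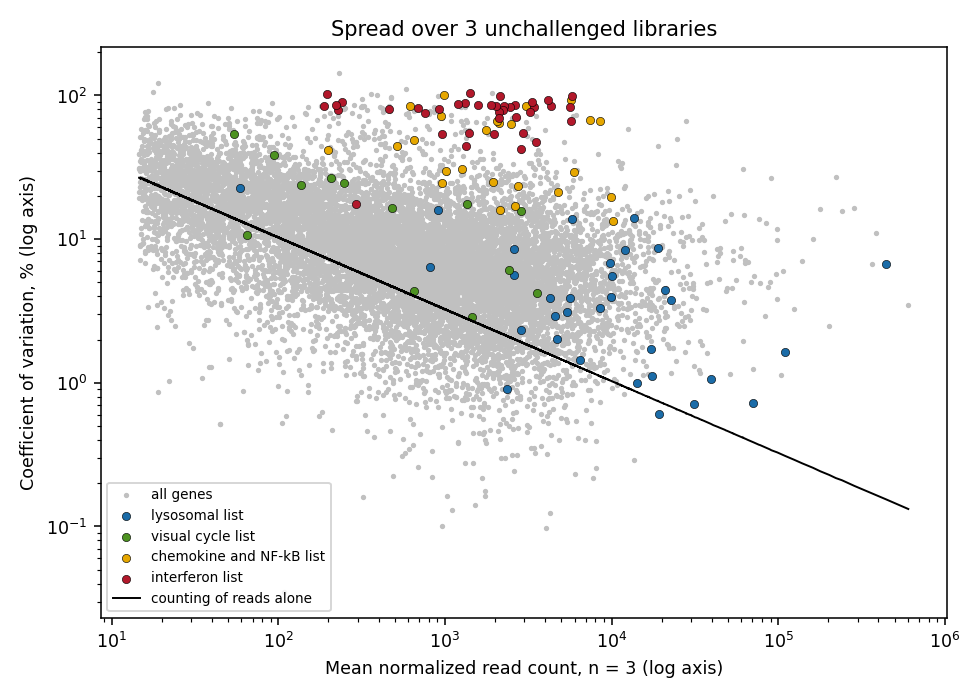
Coefficient of variation over the 3 unchallenged libraries against the mean normalized read count, on log axes. Grey points are all 12556 genes, coloured points 4 lists, and the black line is the CV that counting of reads alone gives. The lysosomal list lies low, with a median CV of 3.83%, and the interferon list high, with a median of 82.7%.

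Interferon-stimulated genes, which cells switch on to resist viruses, had the highest median CV of the lists, 82.7%. Of 43 listed, 39 were measured, and together they took 0.362%, 0.0517% and 0.457% of reads in replicates 1, 2 and 3. Replicate 2 was the lowest library in all 39, against 35.2% of all genes. The highest was replicate 3 in 33 and replicate 1 in 6. A 2-fold range was seen for 38 of the 39, against 4.91% of all genes, with a median ratio of 17.8 between the highest and the lowest library. Without replicate 2 the count was 4 of 39, against 1.93% of all genes. Isg20 was the exception, with 296, 238 and 342 normalized read counts. Because the pattern was known from earlier results of these data, these counts are a description.

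Ifi44, an interferon-induced protein gene, had 3698, 18.1 and 4163 normalized read counts, a ratio of 230 between replicates 3 and 2. Rsad2 (viperin), which makes a chain-terminating nucleotide against viruses, had 2151, 29.8 and 4259, a ratio of 143. Isg15, the ubiquitin-like modifier induced by interferon, had 2174, 21.3 and 2517, a ratio of 118. In each of these genes replicates 1 and 3 were within 2-fold of each other and replicate 2 was close to the floor of the table. The translation inhibitor Ifit1 had 4551, 93.7 and 7739, and Ifit3 had 5553, 200 and 11726. Ifit3b, a near-identical copy of Ifit3, had 1703, 47.9 and 3980, so that reads may be shared between the pair. The nucleotide kinase gene Cmpk2 had 1232, 42.6 and 2942, the deconjugating enzyme of Isg15, Usp18, had 1619, 35.1 and 2330, and Oasl2 had 3626, 83.1 and 3707. Replicate 3 was the highest in all of these, by little in Oasl2. Irf7, the factor that amplifies interferon production, had 3082, 54.3 and 2530. Bst2 (tetherin, which holds budding viruses at the cell surface) had 10119, 837 and 5908, and Lgals3bp had 9536, 1872 and 5804. Replicate 2 was the lowest in these genes too, although replicate 1 was the highest in Irf7, Bst2 and Lgals3bp. Among genes outside the list, the immunity-related GTPase Iigp1 had 899, 12.8 and 1809, and Apol9a, which has near-identical copies, had 273, 3.19 and 269, the middle value being 3 reads.

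**Figure D4:**
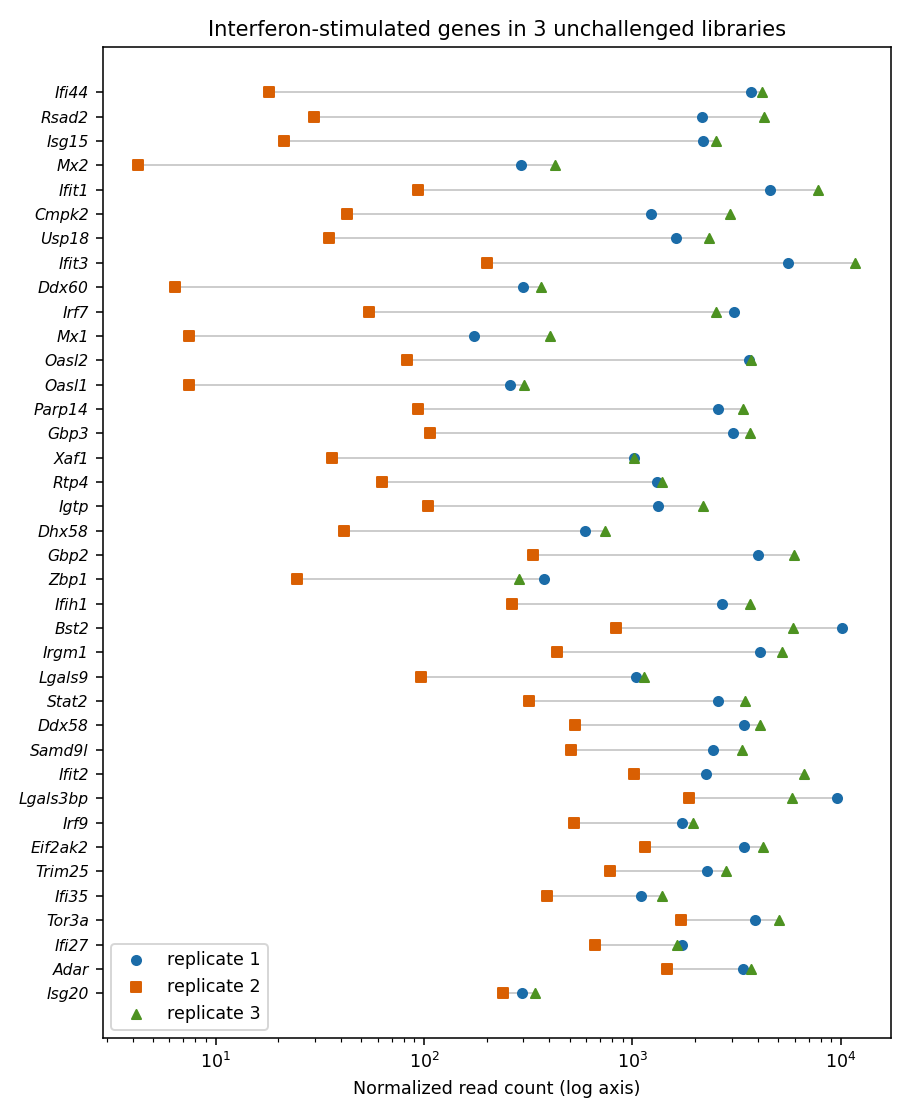
Normalized read counts of 38 of the 39 measured interferon-stimulated genes in the 3 unchallenged libraries, on a log axis, in order of the ratio between the highest and the lowest library. Points are libraries and grey lines join those of a gene. Replicate 2 is the lowest for each gene shown, down to 18.1 for Ifi44 where replicates 1 and 3 had 3698 and 4163.

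Bases upstream of Isg15 and Ifit1 are shown because they carry GAAANNGAAA, the core of the interferon-stimulated response element, in which N stands for any base. Capitals mark the matches on either strand, and the source and layout are as above. The positions are chr4:156200819-156200968 on the minus strand and chr19:34640739-34640888 on the plus strand.
Isg15: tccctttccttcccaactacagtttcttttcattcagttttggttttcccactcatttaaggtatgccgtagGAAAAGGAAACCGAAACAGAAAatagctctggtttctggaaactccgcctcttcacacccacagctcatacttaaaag
Ifit1: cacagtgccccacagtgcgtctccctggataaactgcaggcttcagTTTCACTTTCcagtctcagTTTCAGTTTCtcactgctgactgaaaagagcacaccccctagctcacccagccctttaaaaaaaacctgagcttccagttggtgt
The 3 matches before Isg15 overlap one another and begin 78, 72 and 66 bases before its start. The 2 before Ifit1 lie on the opposite strand and begin 104 and 85 bases before its start. Over 250 bases the letters were found before 12 of 29 interferon list genes in the table (41.4%), against 3.46% of all genes and 3.08% of measured ones. They were also found before 36 of 130 (27.7%) of the genes, in the list or not, whose replicate 2 was at least 2-fold below both other libraries. No match says only that these letters were not in this window.

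Genes for MHC class I antigen presentation were also lowest in replicate 2. Of 18 listed, 17 were measured, all of them lowest in that library, against 35.2% of all genes. A 2-fold range was seen for 13, against 4.91% of all genes. Without replicate 2, a setting added after the data were seen, it was seen for 0 of the 17, against 1.93% of all genes. B2m, the light chain of MHC class I, had 37547, 13068 and 23164 normalized read counts, the class I heavy chain gene H2-K1 20497, 5853 and 11355, and the peptide-loading factor Tapbp 10856, 4636 and 9420. The immunoproteasome subunit Psmb8 had 641, 26.6 and 587 and the peptide transporter Tap1 697, 105 and 952. Replicate 1 was the highest for the first 3 and replicate 3 for Tap1. Class I heavy chain genes are near-identical to one another, so their single levels are uncertain. Of the chaperones in the list that serve all secreted proteins, Pdia3 (29619, 27585 and 30917) and Calr (26112, 25853 and 28034) stayed within 1.5-fold.

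Chemokines and NF-kB targets also differed between libraries. Of 26 listed, 25 were measured, taking 0.406%, 0.171% and 0.271% of reads. Replicate 1 was the highest in 24 of the 25, against 40.5% of all genes, and replicate 2 the lowest in 24, against 35.2%. A 2-fold range was seen for 14, against 4.91% of all genes, and without replicate 2 for 5, against 1.93%. Ccl2, which attracts monocytes, had 14076, 2723 and 8904 normalized read counts, and Lcn2, an iron-siderophore binder, had 13077, 3859 and 5228. Cxcl5, a neutrophil attractant, had 11563, 1316 and 4207. In these genes replicate 1 was above replicate 3, and replicate 3 above replicate 2. Tnfaip2 (11835, 9412 and 9509), Ptgs2 (11828, 7919 and 10038) and Nfkb1 (7826, 4349 and 5732) kept the same highest library with narrower ranges. Cxcl10, an interferon-induced member, was highest in replicate 3, with 3961, 134 and 5150, and Ccl5 had 1987, 13.8 and 945.

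Of 16 listed interferons, receptors and sensors of the interferon system, 12 were measured, with a median CV of 8.47%, against 7.76% over all genes. A 2-fold range was seen for 1 of them, against 4.91% of all genes, and 7 differed by more than counting gives, against 44.5%. Replicate 2 was the lowest library for 7 of the 12, against 35.2% of all genes. The receptor chain Ifnar1 had 3361, 2742 and 2994 normalized read counts, and its partner Ifnar2 had 1930, 1656 and 1674. The receptor kinase Jak1 had 7396, 7038 and 6988, Irf3, which starts interferon transcription, had 926, 1022 and 1043, and the lipopolysaccharide receptor Tlr4 had 1142, 1235 and 1346. The RNA sensor Tlr3 had the 2-fold range, with 948, 456 and 1480. The interferon genes Ifnb1, Ifna4, Ifnl2 and Ifnl3 were not analysed here.

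As a list, markers of immune cells did not share the low value of replicate 2. Of 16 macrophage and leukocyte genes, 13 were measured, and they took 0.00762%, 0.00832% and 0.00608% of reads, lowest in replicate 3 for 11 of the 13, against 27.3% of all genes. Cd68, a lysosomal protein of macrophages, had 797, 800 and 761 normalized read counts, Lyz2 had 593, 825 and 435 and the receptor Csf1r had 247, 251 and 226. The general leukocyte marker Ptprc had 51.8, 42.6 and 17.8. Adgre1, with 79.7, 39.4 and 58.8, was the only 1 of the 13 lowest in replicate 2. A 2-fold range was seen for 6 of the 13, against 4.91% of all genes. The median CV of the 13 was 31.8%, at a low median level of 46.6 normalized read counts. In bulk RNA, fewer cells of a type and less RNA per cell cannot be told apart. The part of immune cells in the interferon and chemokine values was not tested.

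Counted over all genes, a library that differed from both others by at least 2-fold was most often a low replicate 2. There were 173 such genes (1.38% of 12556), and 56 of them belonged to the interferon, MHC class I or chemokine lists. Replicate 1 was high in 80 genes (0.637%) and low in 42 (0.335%). Replicate 3 was high in 15 (0.119%) and low in 25 (0.199%), and replicate 2 was high in 8 (0.0637%). These classes overlap, since a gene can have 1 library high and another low. The median of the gene means was 465 for low replicate 2, 83.0 for high replicate 1 and 26.2 for low replicate 1.

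Above a mean of 100, the largest gaps with replicate 1 on the high side were in Mmp9, the macrophage elastase Mmp12 (1693, 366 and 536 normalized read counts), the complement factor Cfb (606, 115 and 216), the acute phase gene Saa3 (991, 79.9 and 359) and Cxcl5. On the low side of replicate 1 there were 3 such genes, Slc26a7, the organic anion transporter Slco1a4 (56.8, 116 and 157) and Wfdc1 (85.6, 174 and 182). With replicate 3 high they were Ifit1bl1 (63.7, 19.2 and 615), Ifit2 (2249, 1016 and 6682), Cmpk2, Ifit3b and Mx1 (173, 7.45 and 404). All are interferon genes in the list or of the same families. In Cmpk2, Ifit3b and Mx1, as in Saa3 and Cxcl5, the low value of replicate 2 was the larger gap. The gene with replicate 3 low was Reln, which codes for the matrix protein reelin, with 262, 264 and 118.

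**Figure D5:**
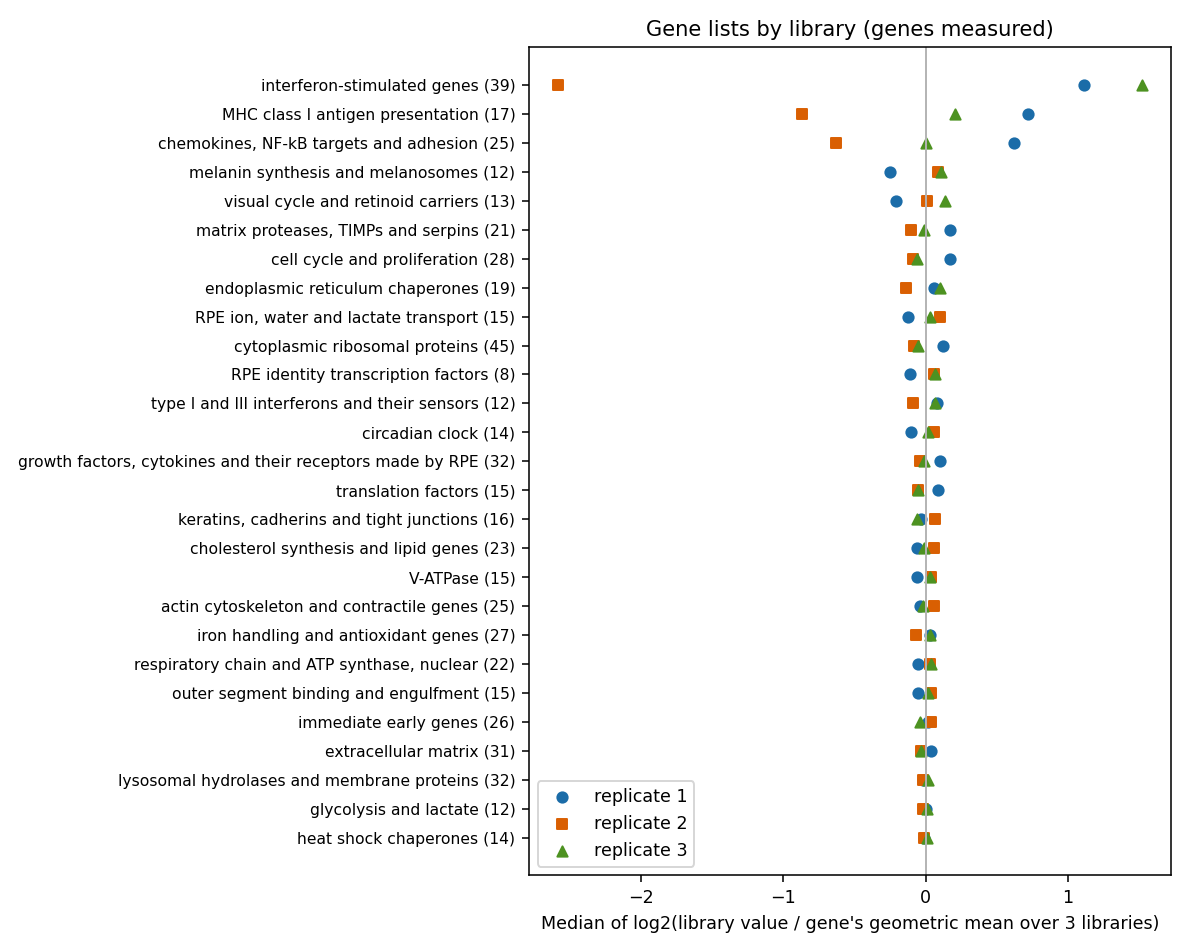
Median log2 ratio of each library to a gene's geometric mean over the 3 libraries, for each list of RPE and general pathways (number of measured genes in brackets). Each point is 1 library. The interferon list lies at 1.11, -2.58 and 1.52 in replicates 1, 2 and 3, while the lists at the bottom, such as the lysosomal and heat shock lists, lie within 0.02 of 0.

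Smaller shifts across whole lists set replicate 1 apart. On the log2 scale of the ratio to a gene's geometric mean, the median of the melanin list was -0.25, 0.09 and 0.11 in replicates 1, 2 and 3, and that of the visual cycle list -0.21, 0.01 and 0.14. The medians of the ribosomal protein list were 0.12, -0.08 and -0.05 and those of the cell cycle list 0.17, -0.09 and -0.06, against 0.01, 0.00 and 0.00 over all genes. Ribosomal proteins were highest in replicate 1 for 38 of 45 genes, translation factors for 13 of 15 and cell cycle genes for 20 of 28, against 40.5% of all genes. Eef1a1 had 76155, 69246 and 69289 normalized read counts and Eef2, another elongation factor, 64372, 56468 and 56572. The proliferation marker Mki67 had 1418, 1014 and 894, and the topoisomerase Top2a had 1415, 1032 and 979. Each of these 4 genes was highest in replicate 1, and the other libraries were closer together. Replicate 1 was the lowest for 5 of the 28 cell cycle genes, which included abundant ones. The cyclins Ccnd2 (24357, 29481 and 27253), Ccnd1 (7912, 10471 and 9326) and Ccnd3 (2128, 2236 and 2316) were among them. So was the inhibitor Cdkn2b (1854, 2565 and 2367). The list's share of reads was thus lowest in replicate 1, at 0.251%, 0.274% and 0.264%. The cell cycle inhibitor Cdkn1a was level at 21732, 21238 and 22032.

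The median of the fibroblast and mural cell markers did not shift in replicate 1, with log2 ratios of 0.01, -0.04 and -0.01. Replicate 1 was the highest in 6 of the 13 measured, against 40.5% of all genes, and the lowest in 5, against 37.6%. The 13 measured of 14 fibroblast and mural cell genes took 0.275%, 0.203% and 0.211% of reads, the most in replicate 1. Col1a1 and Col3a1 led them and were highest there, as was Dcn, the only member with a 2-fold range. Prrx1, a mesenchymal transcription factor, had 4268, 2823 and 2955 normalized read counts. Col6a3 (2451, 2794 and 2569) and Pdgfrb (1595, 1531 and 1613) showed no excess in replicate 1, and Thy1 was lowest there (1371, 2467 and 1915). The part of such cells in the lower melanin and visual cycle values of replicate 1 was not tested. Of 21 photoreceptor genes 2 were measured, the cadherin Cdhr1 at 135, 82.0 and 95.4 and rod arrestin (Sag) at 17.9, 26.6 and 21.1. The other 19, among them Gnat1, were not analysed here.

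Of 13 endothelial genes 7 were measured, and the highest, Egfl7, had 208, 215 and 175. The Müller glia list had 5 of 10 genes, led by Clu (47039, 49654 and 51556) and glutamine synthetase Glul (10306, 13272 and 11788), both of which RPE also expresses. Sox10, a factor of melanocytes and Schwann cells, had 172, 240 and 196 normalized read counts. The corneal epithelial and erythroid lists, with 9 genes each, were not analysed here. Xist, the RNA of the inactive X chromosome, had 9887, 8822 and 8781, and the Y-linked Ddx3y had 2519, 2765 and 2688, so that Xist and Y-linked RNA were present together in every library. Of the lists of other cells not yet named, 4 of 16 inner retinal neuron genes, 6 of 8 choroidal melanocyte genes, 7 of 10 Schwann cell genes, 2 of 10 lens genes and 2 of 10 skeletal muscle genes were measured, all but the Schwann and melanocyte lists with shares of at most 0.0132% of reads in any library.

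Endoplasmic reticulum chaperones showed a modest low in replicate 2, the lowest library for 16 of 19 genes, against 35.2% of all genes. Hspa5, the main chaperone of the compartment, had 55910, 42985 and 56888 normalized read counts and Hsp90b1 46578, 40587 and 48006. Heat shock genes were even, with Hsp90ab1 at 70723, 62576 and 63295 and Hspa8 at 21069, 21135 and 19658, and a median CV of 5.36% over 14 genes. Lipid genes were even too, with a median CV of 4.98% over 23 genes. The desaturase Scd2 had 53967, 49822 and 53969 and the fatty acid synthase Fasn 21337, 22042 and 20788. The lipoprotein gene Apoe had 11682, 14361 and 13677.

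Immediate early genes, 26 of 29 measured, had no 2-fold range and a median CV of 8.22%. Fosl2 had 18117, 18718 and 16287 normalized read counts, Klf6 9673, 9958 and 9430, and Maff 7505, 6789 and 6817. Fos itself had 178, 295 and 272. Clock genes, 14 of 16 measured, ranged from Bhlhe40 (18105, 19531 and 18987) and Clock (2977, 3480 and 3204) down to Dbp (40.8, 51.1 and 58.8), with a median CV of 8.24% and no 2-fold range.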

How the data were processed

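Poly(A) RNA of the cultures was sequenced from 1 library per replicate, each on 2 lanes of a Genome Analyzer, per the labels' protocols. GSNAP, DESeq2 and the build mm10 appear in the submitters' processing notes. Their versions, the annotation, the counting tool and the use of strand were not given in the sources used here, and nothing was assumed of them. The deposited library columns are a signal, a read count that the authors divided by a size factor. Whole reads were recovered for 100% of values (within 0.001). The authors' log2 fold changes, Wald score and p-values, per the file headers, were not used.

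Mean, SD, CV and highest over lowest library were computed for all genes with Python 3.11.15, numpy 2.4.6, pandas 2.3.3 and scipy 1.17.1, and figures drawn with matplotlib 3.10.9. The CV from counting alone is that of reads drawn at random at a gene's mean level. The chi-square test had 2 degrees of freedom per gene and was tested on simulated data. Exonic lengths, for 11931 genes, are unions of GENCODE exons, and 12346 genes matched RefSeq. A symbol was missing for 84 genes and replaced by a date for 20. These were named by Entrez Gene identifier where RefSeq held it. The lowest total over the 3 libraries was 42 reads, and genes below the table's floor were not analysed here.

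Members, the 41 gene lists and tests were chosen with earlier results of these data known. Named genes were the 25 with the highest mean, the 10 lowest CVs and 10 largest ratios at a mean of at least 1000, the 5 largest gaps per class of a library apart at a mean of at least 100, up to 5 leading members per list, the 6 RPE markers and the interferon genes with the largest ratios. Some genes so chosen are not reported here, in text or figures, while counts over lists include them. Others, such as Malat1, Lrat, Rrh, Kcnj13, Slc16a8, Mitf, Axl, Tyro3, Gapdh, Actg1, Mt2, Slc7a11, Slc40a1, Mmp3, Mmp13, Col4a3, Dcn, Acta2, Tagln, Il6, Cdh1, Psmb8, Tap1, Tlr3, Cxcl10, Ccl5, Ptprc, Mki67, Top2a, Fos and Dbp, were chosen after their values were seen. Alternatives were scaling by total reads or TMM, a minimum mean of 100, other thresholds, levels per kilobase and leaving out each library.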

Additional observations from a re-analysis of the deposited data

How the results depend on the processing

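Scaling by total reads or by TMM factors gave 613 and 616 genes with a 2-fold range, against 616, and 5599 and 5570 beyond counting noise, against 5590. The count of genes with a 2-fold range moved to 261 with a mean of at least 100, 1791 at 1.5-fold, 233 at 3-fold and 391 with a pseudocount of 10, and to between 242 and 455 with 1 library left out (242 without replicate 2, 262 without replicate 1). The median CV of 7.76% became 6.59% with a mean of at least 100 and 4.66% to 7.84% with 1 library left out. Genes beyond counting noise numbered 2079 to 5000 with 1 library left out, the lowest without replicate 1. Interferon list members with a 2-fold range numbered 4 to 38 with 1 library left out, the lowest without replicate 2, and 35 at 3-fold. For the other lists, leaving out 1 library was added after the data were seen. The MHC class I count of 13 became 10, 0 and 12 without replicates 1, 2 and 3, and the chemokine count of 14 became 9, 5 and 14. The iron and redox count of 3 became 0, 0 and 3, the matrix protease count of 3 became 3, 1 and 3, and the growth factor count of 6 became 3 in each case. The visual cycle count of 2 became 0, 2 and 2, the transport count of 2 became 0, 2 and 1, and the interferon sensor count of 1 became 1, 0 and 1. Of the 25 most abundant genes, 24 to 25 remained with 1 library left out and 16 per kilobase of exon. The share of the 10 most abundant genes was 10.8% to 10.9% with 1 library left out. With 3 libraries, ratios of genes near the floor of the table rest on few reads. No paired analysis was possible because only 1 group was used and no test between groups was made.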
